A study of Mus musculus with 6 samples.

Results

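Ribosomal proteins are mostly encoded by 1 gene each, and a few of them have a second gene, a paralog, whose product can take the place of the canonical protein in the large ribosomal subunit. The genes considered here were Rpl39l, Rpl3l, Rpl10l and Rpl22l1, each with its canonical partner Rpl39, Rpl3, Rpl10 or Rpl22. They were measured in mouse embryonic stem cells (mESCs) carrying a Setd2 knockout or the wild type gene. Setd2 is the enzyme that places trimethylation on lysine 36 of histone H3 along transcribed genes. Members were all probe sets whose platform annotation named 1 gene, that gene being among the 8 listed. This gave 7 probe sets of 45037, covering 5 of the 8 genes: 3 probe sets for Rpl22 and 1 each for Rpl39l, Rpl39, Rpl3l and Rpl22l1. Rpl3 and Rpl10 were named only on probe sets that name other loci too, and no probe set of the table named Rpl10l. Each of the 7 probe sets lay above the filter on dim signals.

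The set was selected on measured values of these arrays, with the knockout against wild type difference in view. The differences of the members are therefore given as descriptions, with standard errors (SE) and 95% intervals but without p-values. Where called members are counted, the share called among all probe sets stands beside the count and nothing is read from it. For the gene lists the base is all 12915 genes tested, each at its brightest probe set. Of these, 33 were called as higher and 62 as lower. With replicate number as a block (the blocked fit) 533 and 742 were called. An unadjusted p under 0.05 was found for 1736, and nothing is read from the list counts either.

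Canonical ribosomal proteins are made in every growing cell, whereas most of the paralogs are known from single tissues. Rpl39 is a short protein that lines the tunnel through which the new peptide leaves the ribosome, and Rpl39l is known from male germ cells of the mouse. Rpl3 reaches towards the peptidyl transferase centre, and Rpl3l replaces it in heart and skeletal muscle. Rpl10 completes the large subunit late in its assembly, and Rpl10l, a copy that arose by retroposition, serves in mouse male meiosis, when the X chromosome with Rpl10 and Rpl39 is silent. Rpl22 binds RNA at the surface of the subunit and in the mouse holds down the transcript of Rpl22l1.

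The 6 samples were 3 Setd2 knockout and 3 wild type arrays of mESCs of 129SV/C57BL/6 background, with no treatment, grown on feeder cells that were depleted before RNA was taken. Replicates are called biological repeats, but the labels do not say whether they came from separate clones or cultures. Which part of Setd2 was deleted is not said either. The p-values thus set a difference against the spread among these arrays and cannot speak for other clones or cultures. Values are log2 signals from MAS5, Affymetrix software that condenses several probes against a transcript to a single value per probe set. A signal depends on the probes, so levels are compared between arrays at 1 probe set and not between probe sets. In bulk RNA, fewer cells of a type and less RNA per cell cannot be told apart.

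The Setd2 probe set read 9.37, 9.50 and 9.60 on the knockout arrays and 10.31, 10.30 and 10.31 on the wild type arrays, and was 1.76-fold lower in knockout cells (limma adjusted p = 0.0272). Whether this probe set lies in the deleted part is not given, so it checks the genotype only if it does. The pluripotent cell markers were bright, with a mean over 13 genes of 12.25 to 12.38 on knockout arrays and 12.50 to 12.69 on wild type arrays. The 1 marker that passed the threshold was Zfp42, which fell by 1.99 in knockout cells (limma adjusted p = 8.37e-05). In the blocked fit 3 were called, all lower, with Klf2 at -0.84 (limma adjusted p = 0.00800) and Tcl1 at -0.48 (0.0202), and without both arrays numbered 1 the count was 3 as well. Of 18 tested markers of feeder fibroblasts 0 passed the threshold. An unadjusted p under 0.05 was found for 3, against 1736 of all 12915 genes tested. When replicate numbers were blocked 3 passed, 2 as higher and 1 as lower, against 533 and 742 of all genes. Fn1, a matrix protein gene, differed by 0.43 (limma adjusted p = 0.128, and 0.00327 when blocked), and Vim, an intermediate filament gene, by -0.07 (0.972). Pdgfrb and Sparc, named for their blocked calls, differed by 0.81 (limma adjusted p = 0.0430 when blocked) and -0.49 (0.00158 when blocked). The mean feeder level was 7.92, 9.20 and 9.09 on knockout arrays and 8.15, 8.86 and 9.29 on wild type arrays, lowest on the array numbered 1 in each genotype. Single genes of the list split: Vim was lowest on number 1 in each genotype, whereas Fn1 and Sparc were highest there. Of the 4 tested Y-linked genes 3 were called, all with higher signal in knockout cells. Differences of the 4 ran from 0.31 to 6.38 on the log2 scale, with a median of 4.77. Genotype and a difference between the cell lines thus cannot be told apart.

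The regions before the start sites of the Rpl39 pair are shown because the difference of this pair was the larger of the 2 that could be computed. RefSeq sequences of assembly GRCm38.p6 were found for 7 of the 8 genes. The 250 bases before the annotated start of Rpl39l (chr16:10169978-10170227, plus strand) and of Rpl39 (chrX:37085223-37085472, minus strand) read as follows, with capitals marking CCGGAA on either strand, the core to which Ets family factors bind:
Rpl39l: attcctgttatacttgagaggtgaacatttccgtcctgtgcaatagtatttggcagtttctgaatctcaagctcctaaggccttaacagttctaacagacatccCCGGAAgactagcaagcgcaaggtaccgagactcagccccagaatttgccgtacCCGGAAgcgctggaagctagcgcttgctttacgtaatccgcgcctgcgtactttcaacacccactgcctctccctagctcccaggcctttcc
Rpl39: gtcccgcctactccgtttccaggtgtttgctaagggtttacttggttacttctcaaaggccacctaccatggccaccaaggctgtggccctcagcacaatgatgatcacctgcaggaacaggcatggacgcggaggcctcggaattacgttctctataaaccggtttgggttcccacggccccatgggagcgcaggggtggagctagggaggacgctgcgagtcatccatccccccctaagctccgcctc

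The letters CCGGAA occurred 2 times before Rpl39l and 0 times before Rpl39. They were also found 1 time before Rpl10, and 0 times before Rpl3l, Rpl10l, Rpl22l1 and Rpl22. Among all 32851 RefSeq promoters 12% held them, and of 68 promoters of canonical ribosomal protein genes 36.8%. A match describes the letters and shows no binding.

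Messenger RNAs of canonical ribosomal proteins are known to begin with a tract of pyrimidines, through which their translation is controlled together. The 30 bases around each annotated start, 15 before it and 15 from it on, are shown for the measured pairs and Rpl3l, with the longest run of C or T in capitals. They lie at chr16:10170213-10170242 (plus) for Rpl39l, chrX:37085208-37085237 (minus) for Rpl39, chr17:24727811-24727840 (plus) for the upstream start of Rpl3l, chr3:28805493-28805522 (plus) for Rpl22l1 and chr4:152324421-152324450 (plus) for the upstream start of Rpl22:
Rpl39l: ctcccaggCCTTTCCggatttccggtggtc
Rpl39: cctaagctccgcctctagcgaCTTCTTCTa
Rpl3l: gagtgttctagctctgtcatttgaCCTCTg
Rpl22l1: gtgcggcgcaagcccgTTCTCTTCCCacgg
Rpl22: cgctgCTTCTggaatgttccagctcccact

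The longest run had 10 bases in Rpl22l1, 8 in Rpl39, 7 in Rpl39l, and 5 in Rpl3l and Rpl22. A run of at least 8 bases stood in 12% of all such windows and in 39.7% of those of canonical ribosomal protein genes. Annotated starts can lie some bases away from those used in a cell, so a short run shows only that these letters are not in this window.

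Rpl39l was the member that was higher in knockout cells. Its probe set (chromosome 16) read 11.92, 12.40 and 12.37 on the knockout arrays and 10.13, 10.78 and 10.74 on the wild type arrays. All 3 knockout arrays lay above all 3 wild type arrays, and within each genotype the array numbered 1 was the lowest. The means were 12.23 ± 0.27 in knockout and 10.55 ± 0.36 in wild type cells (SD, n = 3 each). The difference was 1.68 ± 0.20 (SE) on the log2 scale, a 3.20-fold higher signal, and ranked 39th among the rises of the 27022 tested probe sets. Within array numbers 1, 2 and 3 it was 1.79, 1.62 and 1.63, so that the genotypes differed by nearly the same amount in each, although the level itself moved with the number. The mean of the feeder markers was lowest on the arrays numbered 1 too, and its part in the level of Rpl39l was not tested.

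**Figure D1:**
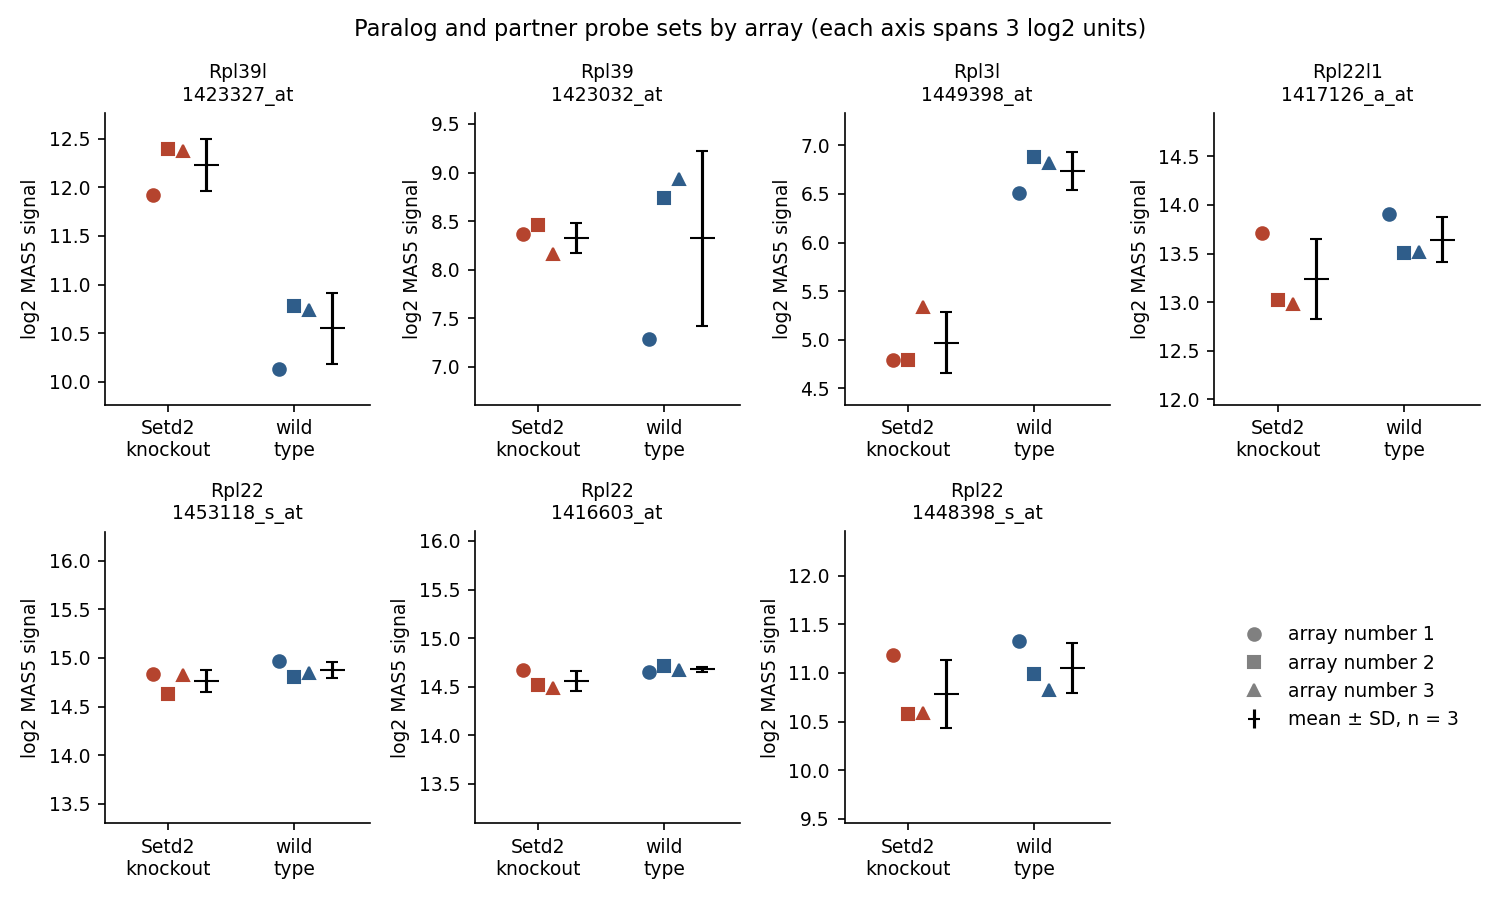
Log2 MAS5 signal of the 7 member probe sets on each array, Setd2 knockout (red) left of wild type (blue); marker shapes give the array number, and the black bar gives the mean ± SD of 3 arrays. The genotypes are apart at Rpl39l, where knockout is higher, and at Rpl3l, where it is lower, and they overlap at Rpl39, Rpl22l1 and all 3 probe sets of Rpl22.

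Its partner Rpl39 did not part the genotypes at the probe set naming it alone (chromosome X). The signal was 8.37, 8.46 and 8.16 in knockout cells, against 7.29, 8.74 and 8.94 in wild type cells. The knockout arrays lay close together, and inside the range of the wild type arrays. The wild type array numbered 1 stood well below the others. The difference was 0.01 with a 95% interval of -0.89 to 0.91, which leaves room for a change in either direction. Without wild type replicate 1 it was -0.51, and within array numbers 1, 2 and 3 it was 1.08, -0.28 and -0.78. Tested genes of the X chromosome, 419 in all, had a median difference of 0.04.

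A further probe set named Rpl39 together with Gm32211 and cannot be assigned to either. It read 14.78, 14.71 and 14.95 on knockout arrays and 14.80, 14.88 and 15.12 on wild type arrays. The groups overlapped, and the low value of wild type replicate 1 at the other probe set had no counterpart here. The difference was -0.12 (95% interval -0.34 to 0.09; limma adjusted p = 0.700).

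Set against each other within each array, the Rpl39l difference exceeded that of Rpl39, at the probe set naming it alone, by 1.67 ± 0.37 (SE). This was a 3.19-fold shift in the ratio of their signals. Taken over the differences within array numbers, the SE was 0.50, and neither SE came from limma. Within array numbers 1, 2 and 3 this shift was 0.71, 1.90 and 2.41. The spread came from this 1 probe set of Rpl39, as the plot of differences by array number shows. At the probe set shared with Gm32211 the differences within array numbers were -0.02, -0.17 and -0.17, and no ratio was taken against it. Such a ratio shows unequal change and does not show that Rpl39 stayed constant.

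**Figure D2:**
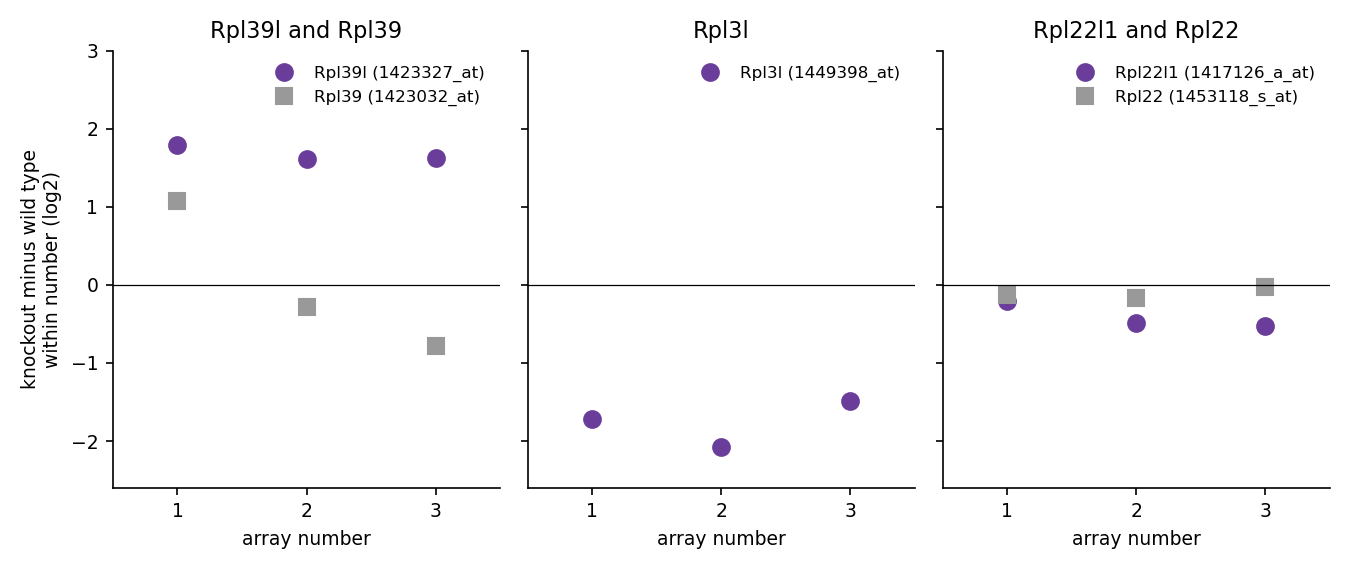
Knockout minus wild type difference in log2 MAS5 signal between the arrays of the same number, for each paralog (purple circles) and its partner (grey squares) at the brightest probe set naming the gene alone. Rpl39l lies between 1.62 and 1.79 at all 3 numbers and Rpl3l between -2.08 and -1.48, while Rpl39 runs from 1.08 at number 1 to -0.78 at number 3.

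Rpl3l, the paralog of striated muscle, was the member with a clearly lower signal in knockout cells. Its probe set (chromosome 17) read 4.79, 4.79 and 5.33 in knockout cells, against 6.51, 6.88 and 6.82 in wild type cells. All knockout arrays lay below all wild type arrays. The means were 4.97 ± 0.31 in knockout and 6.73 ± 0.20 in wild type cells (SD, n = 3 each), a difference of -1.76 ± 0.29 (SE), a 3.39-fold lower signal. Within array numbers 1, 2 and 3 it was -1.72, -2.08 and -1.48. The filter on dim signals stood at 5.27, above the knockout mean, so the probe set was kept through its wild type level, and the fold is uncertain because it is taken against a dim signal.

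No probe set named Rpl3 alone. Those naming it with Gm12816 and with Gm12816 and Gm5879 differed by -0.09 (95% interval -0.22 to 0.04) and -0.08 (-0.45 to 0.29), with limma adjusted p of 0.617 and 0.906. The brighter of these read 14.88, 14.70 and 14.81 on knockout arrays and 14.91, 14.88 and 14.87 on wild type arrays. Its groups overlapped by 1 knockout array. These signals cannot be given to Rpl3 itself, so the difference of Rpl3l was not set against a partner.

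Other genes of striated muscle were dim. Of 20 listed, 12 passed the filter. Of these, 0 passed the threshold in limma and 2 had an unadjusted p under 0.05, against 1736 of all genes tested. The 12 had a median difference of -0.26, against a median of -0.00 over all 12915 genes tested. Their mean level was 6.70 to 6.95 on knockout arrays and 6.98 to 7.20 on wild type arrays. Every knockout array thus had a lower mean over this list than every wild type array. The same held for the pluripotent markers, the small subunit genes and the large subunit genes without members, so it was not particular to muscle genes. It did not hold for the feeder, testis, assembly factor and further paralog lists. The part of this in the Rpl3l difference was not tested. The cardiac myosin gene Myh6 read 7.36, 7.49 and 7.59 on knockout arrays and 8.04, 8.35 and 8.19 on wild type arrays (limma adjusted p = 0.126, or 0.0165 in the blocked fit). Acta1, the skeletal actin gene, differed by 0.13 (0.936).

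Rpl10l was named on no probe set of the table and was not analysed here. The pair of probe sets that name Rpl10 together with Gm5621 differed little between the genotypes. At the brighter of them the signal was 14.69, 14.55 and 14.54 in knockout and 14.59, 14.65 and 14.67 in wild type cells, with the knockout arrays on both sides of the wild type ones. The difference was -0.05 (95% interval -0.18 to 0.09; limma adjusted p = 0.842). At the other it was -0.09 (-0.23 to 0.05; 0.641), and there all 3 knockout arrays, at 14.57, 14.39 and 14.56, lay just below the wild type arrays, which all read 14.60.

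Rpl22l1 had a somewhat lower signal in knockout cells, with groups that overlapped. Its probe set (chromosome 3) read 13.71, 13.02 and 12.98 on the knockout arrays and 13.91, 13.51 and 13.51 on the wild type arrays. The array numbered 1, where the mean of the feeder markers was lowest, was the highest in both genotypes. Knockout replicate 1 lay above wild type replicates 2 and 3. The difference was -0.41 ± 0.20 (SE), a 1.32-fold lower signal, with a 95% interval of -0.86 to 0.05. Within array numbers 1, 2 and 3 it was -0.20, -0.48 and -0.53. In the fit blocked by replicate number the SE was 0.07 and the interval -0.56 to -0.25.

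Its partner Rpl22 was measured by 3 probe sets, all on chromosome 4. The brightest read 14.83, 14.63 and 14.82 in knockout cells, against 14.97, 14.81 and 14.84 in wild type cells. The second read 14.68, 14.51 and 14.48 in knockout and 14.65, 14.71 and 14.67 in wild type cells. The groups overlapped at both. The third read 11.19, 10.58 and 10.58 on knockout arrays and 11.33, 10.99 and 10.83 on wild type arrays, highest on number 1 in each genotype as for Rpl22l1. The differences were -0.11 (95% interval -0.27 to 0.05), -0.12 (-0.26 to 0.02) and -0.27 (-0.72 to 0.18). With the block the interval of the third was -0.45 to -0.08, while those of the other probe sets still spanned 0.

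Against its partner within each array, Rpl22l1 differed by -0.29 ± 0.23 (SE), a 1.23-fold shift in the ratio. Within array numbers 1, 2 and 3 this was -0.07, -0.31 and -0.51. Taken over these differences within array numbers, the SE of the shift was 0.13, and neither SE came from limma. At the brightest Rpl22 probe set the partner was lower in knockout cells at each array number too, whereas at the second it was higher by 0.03 at number 1.

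**Figure D3:**
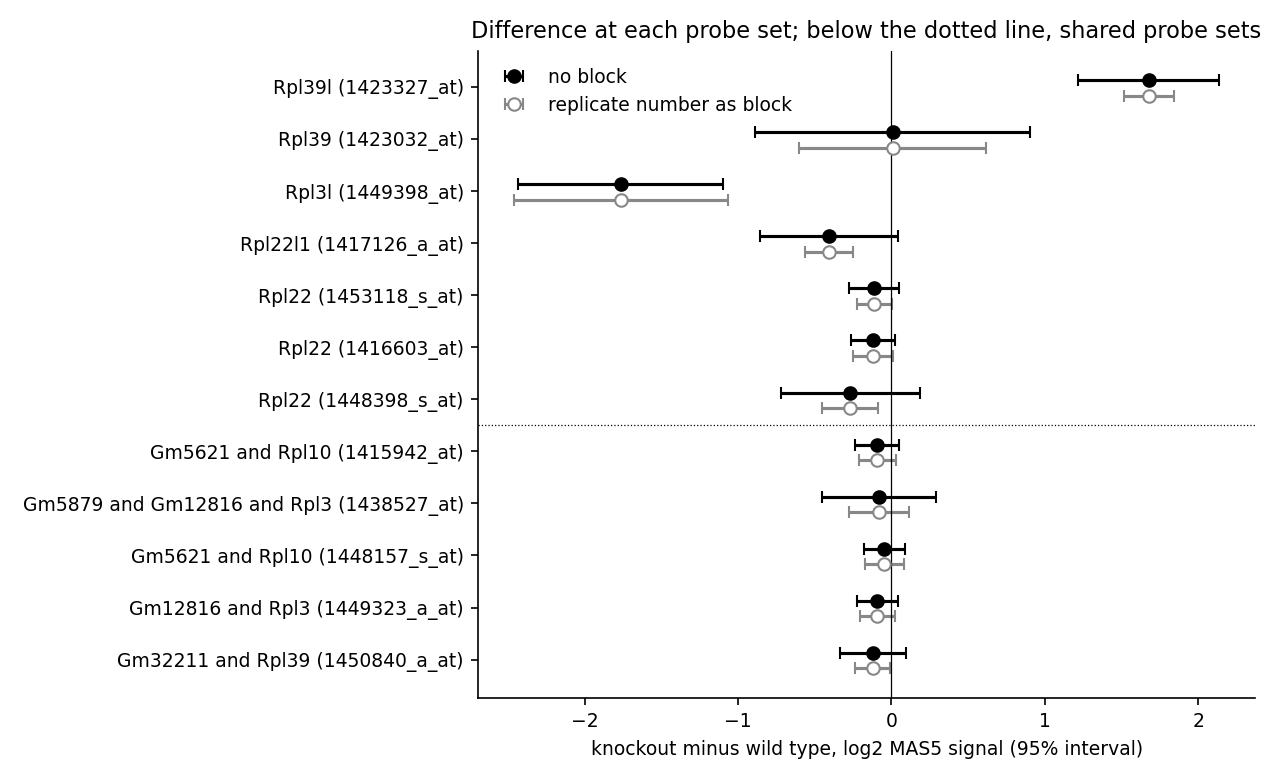
Knockout minus wild type difference in log2 MAS5 signal with its 95% interval for the 7 member probe sets and, below the dotted line, for 5 probe sets that name a member together with other loci; filled points are the limma fit without a block and open points the blocked fit. Rpl39l lies at 1.68, Rpl3l at -1.76 and Rpl22l1 at -0.41, and the other points lie between -0.27 and 0.01.

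Of the 7 member probe sets, 2 were called in the fit across all probe sets (limma, adjusted p threshold 0.05), Rpl39l as higher and Rpl3l as lower, and 0.648% of all tested probe sets were called, 0.274% as higher and 0.374% as lower. In the blocked fit 3 members were called, Rpl22l1 as lower in addition, while 7.88% of all probe sets were called, 3.49% as higher and 4.39% as lower. At 2 of the 7 the genotypes did not overlap, as at 18.1% of all tested probe sets, where knockout was above wild type at 9.16% and below it at 8.99%. Without both arrays numbered 1 they did not overlap at 6 of the 7, where all tested probe sets gave 52.4%. The members were chosen by this contrast, and Rpl3l entered the fit through its wild type level. The count of called members was 0 without wild type replicate 3, knockout replicate 2 or knockout replicate 3, was 1 without wild type replicate 1 or 2, where Rpl39l alone was called, and was 3 without knockout replicate 1. Rpl3l was also not called without the filter on dim signals, and Rpl39l not without the intensity trend.

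Among the other ribosomal protein genes the differences were small. Of 47 large subunit genes listed, 22 had a probe set naming them alone and 22 more were named only together with other loci, many of them provisional names. These 22 include the members Rpl39 and Rpl22. The 20 others all missed the threshold in limma, with 2 at an unadjusted p under 0.05 and a median difference of -0.07. The range ran from -0.32 for Rpl14 to 0.30 for Rpl37, genes picked out after their values were seen, and Rpl37 was called as higher in the blocked fit (limma adjusted p = 0.0288). The brightest, Rpl13a and Rpl38, differed by -0.07 and -0.08.

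Of 32 small subunit genes listed, 21 were tested, 0 passed the threshold in limma with or without the block, and 2 had an unadjusted p under 0.05. Their median difference was -0.04 with a range of -0.32 to 0.17, and the brightest, Rps29 and Rps20, differed by -0.09 and -0.02. Of 5 further paralog genes 3 were tested and 0 passed, also with the block and at an unadjusted p under 0.05. Rps27l, a paralog of Rps27 known as a target of p53, differed by -0.07 (95% interval -0.19 to 0.06), Rps4l, kin to Rps4x, by -0.08 (-0.27 to 0.11) and Rpl7l1, kin to Rpl7 and named after its value was seen, by -0.13 (-0.50 to 0.24).

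**Figure D4:**
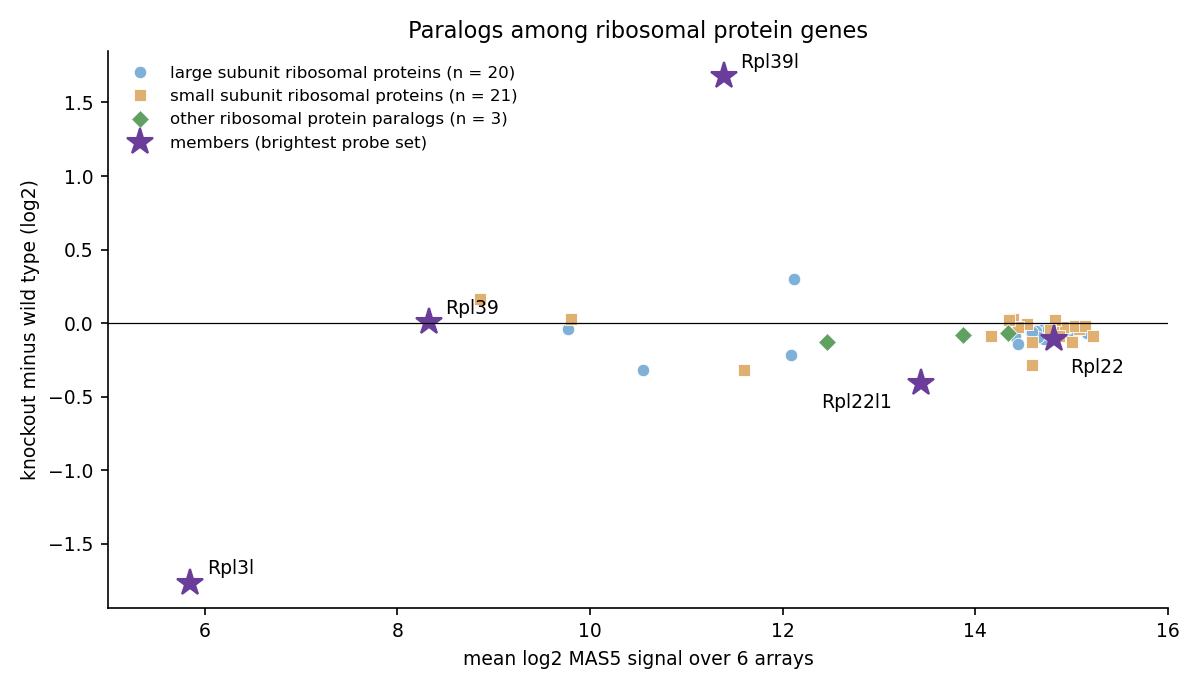
Knockout minus wild type difference against the mean signal over 6 arrays, both on the log2 MAS5 scale, for ribosomal protein genes at their brightest tested probe set; purple stars are the members, the other symbols are large subunit genes (without Rpl39 and Rpl22), small subunit genes and further paralogs. The canonical genes lie between -0.32 and 0.30, with Rpl39l at 1.68 above and Rpl3l at -1.76 below them.

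Factors that assemble the large subunit gave 0 of 19 tested genes past the threshold in limma, with 1 at an unadjusted p under 0.05, 0 with the block and a median of -0.01. They include Grwd1, whose yeast counterpart is the chaperone of Rpl3, at -0.01 (95% interval -0.31 to 0.29), and Nmd3, the export adaptor that leaves the subunit as Rpl10 is seated, at -0.07 (-0.33 to 0.19), both named after their values were seen. The brightest were Rsl1d1 at -0.07 and Eif6, which keeps unfinished large subunits from joining small ones, at 0.17.

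Genes of testis and germline were examined because Rpl39l is known from male germ cells. Of 25 listed, 10 passed the filter on dim signals. Of these, 0 passed the threshold in limma and 2 had an unadjusted p under 0.05, against 1736 of all 12915 genes tested. The 10 had a median difference of 0.19. Their mean level was 8.68 to 9.12 on knockout and 8.45 to 9.06 on wild type arrays, ranges that overlapped, and their part in the Rpl39l difference was not tested. The brightest, Tex15 and Ddx4, differed by -0.01 and -0.11. In the blocked fit 3 were called, while of all genes tested 533 were called as higher and 742 as lower. The 3 are named for that: Mael, a piRNA pathway gene, at 0.85 (limma adjusted p = 0.00085), Dazl, an RNA-binding protein of germ cells, at 0.90 (0.0101), and Stra8, which drives entry into meiosis, at -0.82 (0.00118).

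The nearest tested genes on either side of each paralog were followed as well. Directly beside Rpl39l, 17.7 kb away, lay Atf7ip2, which read 8.77, 9.51 and 9.43 on knockout arrays and 8.58, 8.98 and 8.74 on wild type arrays. Its difference was 0.47 (limma adjusted p = 0.460, or 0.0471 in the blocked fit), with groups that overlapped. On the other side the nearest tested gene, 1810013L24Rik, lay 1311 kb away with 13 untested genes in between. It differed by 0.51 (limma adjusted p = 0.186, and 0.00543 with the block), with all knockout arrays above all wild type arrays. Ndufb10 and Msrb1, the direct neighbours of Rpl3l, differed by -0.09 (0.735) and -0.15 (0.839). Around Rpl22l1, Eif5a2 and Mynn, with 1 and 16 genes in between, differed by 0.09 (0.933) and 0.01 (0.995). Around Rpl10l, Fancm and Rps29, with 11 and 20 genes in between, differed by 0.05 (0.959) and -0.09 (0.680).

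The genes whose profile over the 6 arrays was most like that of a paralog were found by Pearson's r among genes at their brightest tested probe set, as a description over 6 points that share the genotype split. For Rpl39l these were Cenpq, Sdad1 and Sox11 (r = 0.996, 0.996 and 0.995), with differences of 0.40, 0.31 and 0.86. Genes found in this way follow the genotype split of a paralog that was chosen with that difference in view. Their own calls would be circular and are not given. For Rpl3l they were Urb2, Slc25a15 and Parp2 (r = 0.998, 0.997 and 0.996), with differences of -0.61, -0.49 and -0.30. For Rpl22l1 they were Slc25a30, Malsu1 and Glis2 (r = 0.995, 0.994 and 0.994), with differences of -0.85, -0.13 and -0.38. The profile of Rpl39l correlated with that of its partner Rpl39 at r = 0.23, and the profile of Rpl22l1 with Rpl22 at r = 0.76.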

How the data were processed

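The authors deposited log2 values, which per the submitters' processing notes came from MAS5, version not given in the sources used here. That they are on the log2 scale was read from their range: array medians lay between 6.09 and 6.22, and 280 to 454 values per array were exactly 0. They were used as deposited. Genes were named from the platform annotation and updated by gene identifier (34741 of 34945 probe sets naming 1 gene) against a RefSeq table of GRCm38.p6. This reference also gave the chromosome, order and distance of genes.

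Probe sets with a mean below the 40th percentile (5.27) were left out, and the remaining 27022 went into limma 3.58.1 under R 4.3.3 (lmFit, eBayes with an intensity trend, two-sided, Benjamini-Hochberg over all, threshold 0.05). A gene is given at its brightest probe set. The members and the 8 gene lists were chosen with earlier results of these data known. Named genes are all members, Setd2, list members past the threshold (or the 2 brightest), neighbours of the paralogs and the 3 most similar profiles; others are marked. The fit was tested on simulated data.

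Replicate numbers come from the titles. Across probe sets, same-numbered arrays deviated together from their genotype means (r = 0.50, 0.23 and 0.24). However, wild type 2 correlated with knockout 3 as with knockout 2, and wild type 3 with knockout 2 at r = 0.17. Pairing of numbers 2 and 3 is therefore not shown. The blocked fit is given beside calls it changes. The number of arrays limits the precision.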

Additional observations from a re-analysis of the deposited data

How the results depend on the processing

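The number of probe sets called, 175, was 2129 with the replicate block, 2025 without both arrays numbered 1, 57 without an intensity trend, and 33 to 437 with single arrays left out. Called members numbered 1 without the filter on dim signals, with the filter at the 60th percentile (where Rpl3l was not tested) and without the trend, and 0 to 3 with single arrays left out. Differences with single arrays left out ran from 1.47 to 1.83 for Rpl39l, -1.94 to -1.67 for Rpl3l, -0.64 to -0.27 for Rpl22l1, -0.15 to -0.05 for Rpl22 and -0.51 to 0.32 for Rpl39, which changed sign. Rpl39 was also at -0.03 after centring on array medians. The Rpl39l shift against Rpl39 ran from 1.46 to 1.98 and was 2.15 without both arrays numbered 1, where the low wild type value of Rpl39 is left out, and the Rpl22l1 shift against Rpl22 ran from -0.49 to -0.14. The block leaves differences as they are and changes their error. Quantile normalization and the mean over all probe sets of a gene changed no direction. Shifts for Rpl3l and Rpl10l against a partner could not be computed, for want of a probe set naming Rpl3, Rpl10 or Rpl10l alone. Depth does not apply to arrays, and dim signal limits Rpl3l.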
